A study of Mus musculus with 12 samples.

Results

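The imprinted growth genes examined here were the 10 genes H19, Igf2, Peg3, Plagl1, Mest, Grb10, Dlk1, Meg3, Sgce and Ndn, taken as a fixed list of symbols and not by any measured value. On the bead arrays used, 12 of 25697 probes carried the name of 8 of them in the platform annotation. No probe was named H19, Meg3 or its older symbol Gtl2, and these genes are not analysed here. Cells came from C57BL6/J E15.5 embryos and were primary MEFs, connective-tissue cells grown out of the embryo body. They formed 4 groups of 3 arrays each. The dKO Dex and dKO EtOH groups carried Cry1-/- and Cry2-/- alleles, and the control Dex and control EtOH groups were heterozygous (+/-) for both genes according to the sample labels, although the design text names them wild type. Dex groups had received 1 µM dexamethasone, a synthetic glucocorticoid, and EtOH groups its ethanol vehicle, for 16 hours. The labels call the arrays of a group biological replicates without saying whether they came from different embryos or cultures, so p-values measure only the spread between these samples, which may be technical. The series title concerns repression of the glucocorticoid receptor by cryptochromes, the transcriptional repressors encoded by Cry1 and Cry2. Comparisons asked how these genes differed between genotypes under each treatment, and what Dex did to them in each genotype.

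An imprinted gene is transcribed mainly from the copy inherited from one parent, because DNA methylation set in the egg or sperm marks the parental copies differently. Paternally expressed imprinted genes such as Igf2, Dlk1, Mest, Peg3, Plagl1, Sgce and Ndn and maternally expressed ones such as H19, Meg3 and Grb10 lie in clusters, and many act on fetal growth, placental supply and the fate of mesenchymal cells. Most are abundant in embryonic mesenchyme and decline after birth. The arrays read total messenger RNA and did not separate the parental copies.

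Each array had 10953 to 11527 probes (42.6% to 44.9%) above background, meaning a detection p under 0.01 against the negative control beads, and a median signal of 187 to 216. The tests used 12054 probes that were above background on at least 3 of the 12 arrays. All 9 fibroblast markers with a probe were among them, although Lum was at background in both Dex groups. The samples thus carried markers of their label, and macrophage markers as well, which are given below. The probe of Cry1 did not rise above background on any array. That of Cry2 was not lower in dKO cells, with a mean log2 level of 6.77 in dKO Dex and 6.64 in control Dex (change 0.13, adjusted p = 0.732 in limma), and of 6.63 in dKO EtOH and 6.16 in control EtOH (change 0.47 ± 0.21, SE, adjusted p = 0.115). No source used here places either probe inside or outside what was deleted, and the genotype is not checked by them. Per2, a clock gene repressed through cryptochromes, separated the genotypes, with a log2 level of 10.24 ± 0.09 in dKO Dex against 6.84 ± 0.24 in control Dex and 10.04 ± 0.15 in dKO EtOH against 7.18 ± 0.12 in control EtOH (SD, n = 3 each). An earlier analysis of these data found 3 arrays apart from the rest of their groups, namely control_Dex replicate 3 and dKO_EtOH replicates 1 and 2. Results for the imprinted genes are therefore also given without them, in a fit that leaves dKO EtOH with 1 array, assumed to vary like the other groups.

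Of the 12 probes, 6 were at background on all 12 arrays. They were the single probes of Peg3, which encodes a zinc-finger protein of maternal behaviour and muscle stem cells, and of Sgce, which encodes the membrane glycoprotein epsilon-sarcoglycan. They also included all 3 probes of Plagl1, a zinc-finger growth regulator known to act on Igf2 and other imprinted genes, and 1 of the 3 probes of Mest. Peg3 signals lay between 144 and 205 with a lowest detection p of 0.0501, and Sgce signals between 147 and 170 with a lowest detection p of 0.299. The Plagl1 probes read 133 to 189, with a lowest detection p of 0.155 among them. These genes gave no comparison. The tests therefore rested on 6 probes of 5 genes: Igf2, Dlk1, Grb10, Ndn and 2 probes of Mest. The Igf2, Dlk1, Grb10 and Ndn probes were above background on all 12 arrays. The Mest probes passed on 8 and 7 arrays, including all 6 dKO arrays, so they entered the tests through the group in which they were higher.

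Igf2 and Dlk1 were lower in dKO cells under both treatments and Mest was higher, whereas Grb10 and Ndn passed no test. Promoter sequences of Igf2, Dlk1 and Mest are shown, with the elements searched for, because these 3 genes passed between genotypes. The Igf2 and Mest windows shown are ones that hold a motif match. The windows run from 250 bases before to 50 bases after a RefSeq start site (GRCm38.p6), and 15 windows belonged to 8 of the 10 genes, 4 of them to Igf2 and 3 to Mest. Capitals mark a motif match, and the sequences are printed on the strand of the gene.
Igf2 window 1, chr7:142666767-142667066, minus strand: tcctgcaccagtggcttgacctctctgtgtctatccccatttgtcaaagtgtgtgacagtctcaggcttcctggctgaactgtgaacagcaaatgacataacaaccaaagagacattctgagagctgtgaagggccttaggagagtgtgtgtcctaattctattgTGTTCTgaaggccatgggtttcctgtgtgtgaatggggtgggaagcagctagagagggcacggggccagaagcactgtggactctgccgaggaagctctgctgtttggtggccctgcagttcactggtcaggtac
Dlk1, chr12:109452573-109452872, plus strand: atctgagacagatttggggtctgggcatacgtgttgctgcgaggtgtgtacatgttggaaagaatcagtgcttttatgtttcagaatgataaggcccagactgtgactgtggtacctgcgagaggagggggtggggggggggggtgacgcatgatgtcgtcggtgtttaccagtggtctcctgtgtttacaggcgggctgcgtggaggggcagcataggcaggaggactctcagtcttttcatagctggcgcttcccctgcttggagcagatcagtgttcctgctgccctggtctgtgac
Mest window 2, chr6:30737800-30738099, plus strand: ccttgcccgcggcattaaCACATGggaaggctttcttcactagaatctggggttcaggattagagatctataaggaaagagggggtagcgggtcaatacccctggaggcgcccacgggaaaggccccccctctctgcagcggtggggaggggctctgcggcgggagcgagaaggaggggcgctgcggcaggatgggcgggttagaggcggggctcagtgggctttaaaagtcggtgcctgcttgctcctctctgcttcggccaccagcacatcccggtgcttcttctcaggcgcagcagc
Both strands were searched for 7 motifs. Igf2 window 1 held the hexamer TGTTCT bound by 1 unit of the glucocorticoid receptor, which 19% of all 32851 RefSeq promoter windows hold, and the other 3 Igf2 windows held none of the motifs. The Dlk1 window held none. Mest window 2, and window 3 which overlaps it, held the clock element CATGTG on the opposite strand, present in 14.2% of all windows. None of the 3 genes had the E-box CACGTG (7.15% of all windows), the full glucocorticoid response element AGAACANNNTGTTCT (0.00913%), the D-box TTATGTAA (0.938%), the TATA element TATAAA (13.6%) or the cAMP response element TGACGTCA (1.79%) in these windows. Of the other genes, Ndn held a D-box, Plagl1 a CACGTG E-box, Peg3 a cAMP response element, and Meg3 a cAMP response element and TATA matches in its first window and CATGTG in its second. A match describes letters in the window and not a bound site.

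Igf2 encodes insulin-like growth factor 2, the fetal growth factor that signals through the IGF1 and insulin receptors and is cleared by the IGF2 receptor. Its signals were 1699, 2549 and 1735 in dKO EtOH, against 8740, 6477 and 7800 in control EtOH. Every dKO EtOH array lay far below every control EtOH array, and 41.7% of all probes had groups that did not overlap in this comparison, in either direction. On the normalized log2 scale its level was 10.98 ± 0.36 in dKO EtOH and 12.72 ± 0.16 in control EtOH (SD, n = 3 each), a change of -1.74 ± 0.23 (SE), or 3.35-fold lower (95% interval 2.36 to 4.74, adjusted p = 0.000311 in limma). This was the 52nd largest fall among the 12054 probes. Because the cultures were measured in bulk, fewer cells expressing a gene and less RNA per cell cannot be told apart. Under Dex the Igf2 signals were 2148, 2590 and 3374 in dKO cells, against 4912, 5067 and 3443 in control cells. The groups still did not overlap, as for 34.6% of all probes in this comparison, but the highest dKO array and the lowest control array came close together. The level was 11.32 ± 0.45 in dKO Dex and 12.10 ± 0.20 in control Dex, a change of -0.78 ± 0.23, or 1.72-fold lower (adjusted p = 0.0385 in limma). That call was lost in 10 of 24 other ways of processing, including without dKO_Dex replicate 1 (-0.56, adjusted p = 0.141), and it stayed without the 3 arrays named above (-0.89, adjusted p = 0.0213).

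Dlk1 encodes a transmembrane and shed protein related to the Notch ligands, known as preadipocyte factor, that holds mesenchymal precursors back from becoming fat cells. Its signals were 861, 965 and 1220 in dKO EtOH, against 4219, 3098 and 4128 in control EtOH. The groups were separate by a wide margin, in a comparison where 41.7% of all probes had groups that did not overlap. Its log2 level was 9.87 ± 0.26 in dKO EtOH and 11.64 ± 0.21 in control EtOH, a change of -1.77 ± 0.27, or 3.42-fold lower (adjusted p = 0.000826 in limma). Under Dex the signals were 823, 719 and 842 in dKO cells, against 5231, 2887 and 1917 in control cells. The control Dex arrays spread widely and the lowest of them was still above every dKO Dex array. Groups did not overlap for 34.6% of all probes here. The change was -2.14 ± 0.27, or 4.41-fold lower (95% interval 2.93 to 6.64, adjusted p = 0.000273 in limma), the 11th largest fall among the 12054 probes. The lowest control Dex array was 1 of the 3 named above, and without those 3 the changes were -2.43 in Dex (adjusted p = 0.000205) and -1.48 in EtOH (adjusted p = 0.0107).

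Mest, also known as Peg1, encodes a protein of the alpha/beta hydrolase family that is associated with fetal growth and fat-cell enlargement. The probe with the higher share of arrays above background, ILMN_2846904, read 385, 339 and 358 in dKO EtOH, against 279, 229 and 259 in control EtOH. Under Dex it read 305, 333 and 311 in dKO cells, against 211, 220 and 211 in control cells. All 6 dKO arrays were above background, as were 2 control EtOH arrays and none of the control Dex arrays. The log2 change between genotypes in EtOH was 1.32 ± 0.17 (adjusted p = 0.000295 in limma). In Dex, where control cells were at background, Mest was at least 2.49-fold higher in dKO cells, from the lowest signal above background on each array (adjusted p = 9.92e-05 in limma). This bound compares means and does not allow for the spread between arrays.

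A second Mest probe, ILMN_2642417, read 254, 269 and 269 in dKO EtOH, against 273, 193 and 219 in control EtOH. A single control array exceeded every dKO array before normalization, and the groups did not overlap after it, as for 41.7% of all probes. Its change was 0.91 ± 0.27 in EtOH (adjusted p = 0.0304 in limma), a call lost in 7 of 23 other ways of processing, with adjusted p = 0.121 without the 3 arrays named above. In Dex this probe read 261, 278 and 239 in dKO cells, against 217, 196 and 207 in control cells, and was at least 1.65-fold higher in dKO cells (adjusted p = 0.0113 in limma). The third probe, at background throughout, read 189 to 216 in dKO Dex and 163 to 186 in control Dex, and 181 to 209 in dKO EtOH and 173 to 191 in control EtOH, where the groups overlapped. No change is read from it.

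Grb10 encodes an adaptor protein that restrains insulin and IGF signalling, and it is expressed from the maternal copy in most embryonic tissues. Its signals were 13091, 13804 and 15895 in dKO EtOH, against 18923, 19139 and 21746 in control EtOH, and 18027, 17190 and 14826 in dKO Dex, against 17642, 16009 and 13553 in control Dex. The unnormalized EtOH groups did not overlap, but after normalization they did. The Dex groups overlapped both before and after it. After normalization the change was -0.24 ± 0.11 in EtOH (95% interval -0.47 to 0.00, adjusted p = 0.126 in limma) and 0.01 ± 0.11 in Dex (95% interval -0.22 to 0.25, adjusted p = 0.952). When arrays were instead scaled to equal medians over all 25697 probes, the EtOH change was -0.42 and passed (adjusted p = 0.0312 in limma). The median change of the 12054 tested probes then moved to -0.21. With array weights it was -0.30 and passed as well (adjusted p = 0.0185).

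Ndn encodes necdin, a growth suppressor of the MAGE family that binds E2F1 and p53. Its signals were 15440, 16543 and 16412 in dKO EtOH, against 23076, 21207 and 20676 in control EtOH, and 18825, 18463 and 17031 in dKO Dex, against 19400, 18321 and 19508 in control Dex. Ndn was lower on every dKO EtOH array than on any control EtOH array, also after normalization. Of all probes, 41.7% had groups that did not overlap in this comparison, in either direction. The Ndn change was small, -0.18 ± 0.09, and did not pass (95% interval -0.37 to 0.01, adjusted p = 0.149 in limma). In Dex the change was -0.13 ± 0.09 (95% interval -0.32 to 0.06, adjusted p = 0.365). Median scaling again gave a larger value in EtOH, -0.36, which passed (adjusted p = 0.0203).

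**Figure D1:**
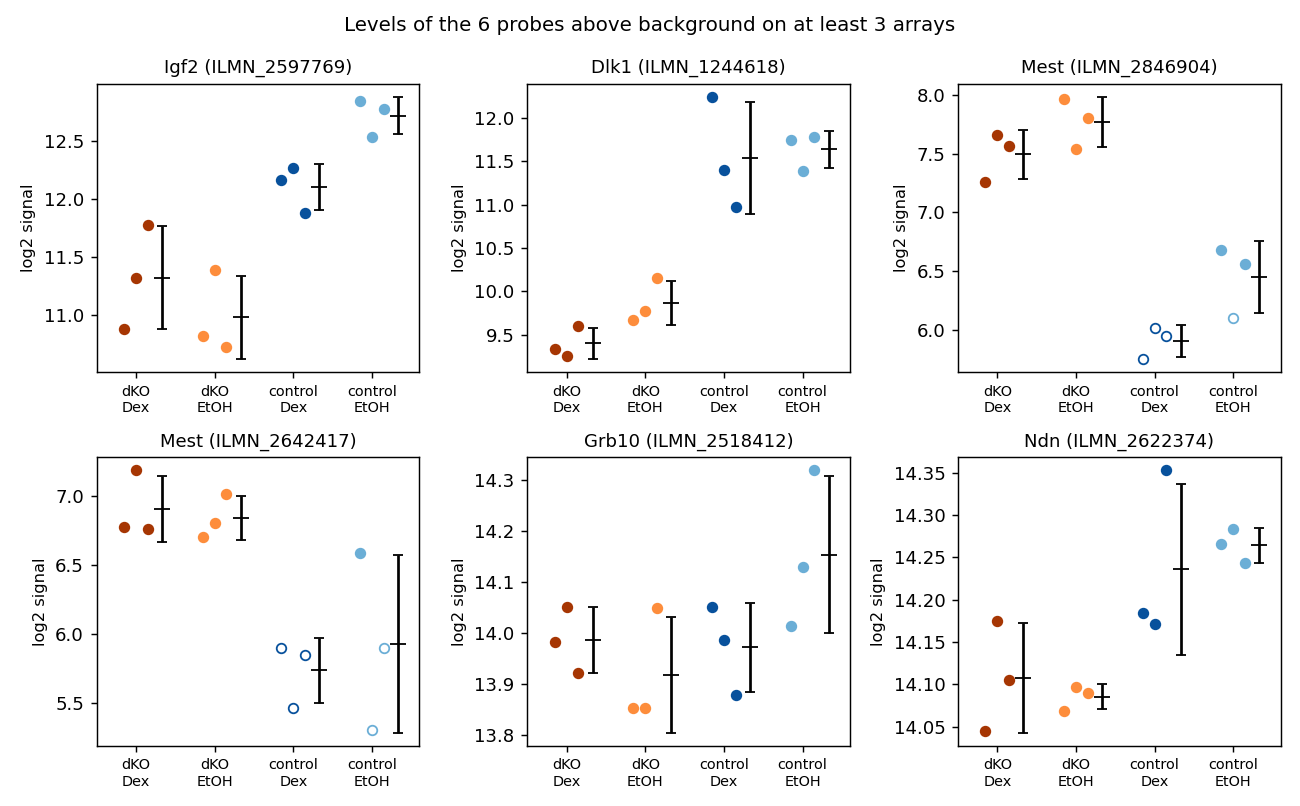
Normalized log2 level of each tested probe on every array, by group (dKO Dex, dKO EtOH, control Dex, control EtOH), with filled points above background, open points not above it, and dashes with bars for the mean ± SD of 3 arrays. Igf2 and Dlk1 sit lower in both dKO groups than in the control group of the same treatment, both Mest probes sit higher, and Grb10 and Ndn stay near log2 14 in all groups.

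In total 4 of the 6 tested probes passed between genotypes in EtOH, 2 higher and 2 lower, where 23.9% of all 12054 probes passed (10.7% higher and 13.1% lower). In Dex 4 of the 6 passed as well, 2 higher and 2 lower, where 16.7% of all probes passed (8.35% higher and 8.32% lower). Both probes counted as higher are those of Mest, which entered the tests through the dKO arrays, so these counts are a description and nothing is read from them against the shares of all probes. Counted by gene, Mest rose, Igf2 and Dlk1 fell, and Grb10 and Ndn did not pass, under each treatment. Of the 4 paternally expressed genes among them, 1 rose, 2 fell and 1 did not pass.

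Dex itself left these genes without a call in limma. In dKO cells 0 of 6 probes passed, with 0 at an unadjusted p under 0.05, where 13% of all probes passed. In control cells 0 of 6 passed, with 2 at an unadjusted p under 0.05, where 17.2% of all probes passed. The response differed between genotypes for 0 of 6, with 1 at an unadjusted p under 0.05, where 1.36% of all probes passed this interaction. Other settings gave 1 or 2 calls for Dex in control cells, and these are listed with the dependence on processing.

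The 2 probes with an unadjusted p under 0.05 in control cells were Igf2 and Mest ILMN_2846904. In dKO cells the Igf2 change with Dex was 0.34 ± 0.23 (95% interval -0.16 to 0.85, adjusted p = 0.339 in limma) and its groups overlapped. Igf2 was lower on each control Dex array than on any control EtOH array, with a change of -0.62 ± 0.23 (95% interval -1.12 to -0.12, adjusted p = 0.0917). The difference between the Igf2 responses was 0.96 ± 0.32 (95% interval 0.25 to 1.67, adjusted p = 0.125), and it passed in 1 of 24 other ways of processing, median scaling (1.27, adjusted p = 0.0454). Mest ILMN_2846904 changed by -0.28 ± 0.17 with Dex in dKO cells (adjusted p = 0.308 in limma). In control cells its Dex arrays were at background and 2 of 3 EtOH arrays were above it. Its fall with Dex there did not pass (adjusted p = 0.0521). Taken against the lowest above-background values, the means differed 1.20-fold, which is not an established minimum. Both genes had separate Dex and EtOH groups in control cells, as did 35.9% of all probes.

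Dlk1 changed by -0.47 ± 0.27 with Dex in dKO cells (95% interval -1.06 to 0.13, adjusted p = 0.269 in limma), where each Dex array lay below each EtOH array, as was the case for 32% of all probes with a separation in either direction. In control cells its change was -0.10 ± 0.27 (95% interval -0.69 to 0.49, adjusted p = 0.851) and the groups overlapped. The difference between these Dlk1 responses was -0.37 ± 0.38 (95% interval -1.20 to 0.47, adjusted p = 0.585). For Grb10 the change with Dex was 0.07 in dKO cells and -0.18 in control cells, with adjusted p = 0.704 and 0.294. For Ndn it was 0.02 in dKO cells and -0.03 in control cells, with 95% intervals of -0.17 to 0.21 and -0.22 to 0.16. The hormone was active in these cells. Fkbp5, a glucocorticoid target gene, had log2 levels of 11.67 ± 0.11 in dKO Dex against 6.85 ± 0.26 in dKO EtOH, and 12.28 ± 0.25 in control Dex against 7.77 ± 0.06 in control EtOH.

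**Figure D2:**
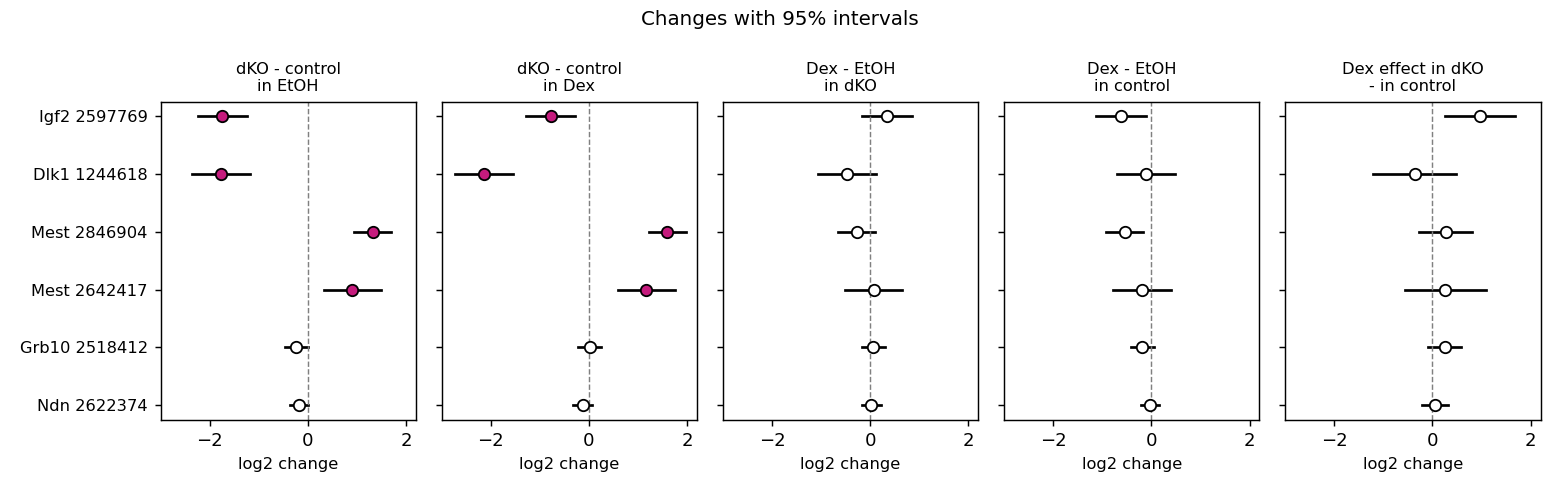
Log2 change of each tested probe in each of the 5 comparisons, the last being the difference between the Dex responses, with its 95% interval and filled points for calls at an adjusted p under 0.05. The genotype panels place Dlk1 and Igf2 below 0 and Mest above it, and no interval in the Dex panels belongs to a call. The Mest points that involve control Dex, where it was at background, are fitted values and not bounds.

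Genes whose levels followed each imprinted gene most closely over the 12 arrays were taken by Pearson correlation. These values describe levels that share the same 4 groups and carry no test. Igf2 was nearest to Aox3, an aldehyde oxidase gene (r = 0.95), Ccnf, the gene of cyclin F (r = 0.94), and Il10rb, a cytokine receptor gene (r = 0.94). Dlk1 was nearest to Obi1, a ubiquitin ligase gene (r = 0.97), Zfpm1, a cofactor of GATA factors (r = 0.97), and Ets2, a transcription factor gene (r = 0.96). Mest was nearest to Osr2, a transcription factor gene of limb and palate mesenchyme (r = 0.98), Adh7, an alcohol dehydrogenase gene (r = 0.97), and Cox6a2, a cytochrome oxidase subunit gene (r = 0.97). The nearest to Grb10 was Ehmt2, a histone methyltransferase gene (r = 0.91), and the nearest to Ndn was Rps6ka3, a growth-factor-responsive kinase gene (r = 0.89).

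Further imprinted genes, 52 in all, were listed from general knowledge, and imprinting of several of them is limited to some tissues. Of the 43 with a probe, 18 were measured and 22 had every probe at background on all arrays, Peg10, Rtl1, Phlda2 and Nnat among them. Between genotypes in EtOH 4 of the 18 fell and 1 rose, where 14.8% of 8420 genes fell and 9.89% rose. Slc38a4, a paternally expressed amino acid transporter gene of fetal tissues, fell by 1.84 on the log2 scale (SE 0.18, adjusted p = 4.18e-05 in limma). Ddc, an aromatic amino acid decarboxylase gene next to Grb10, fell by 1.52 (SE 0.21, adjusted p = 0.000454), Pon3, a paraoxonase gene of the Sgce cluster, by 0.61 (adjusted p = 0.00573) and Dcn, the gene of the matrix proteoglycan decorin, by 0.79 (adjusted p = 0.00602). H13, a signal peptide peptidase gene, rose by 0.77 (adjusted p = 0.0355). Without the 3 arrays named above Slc38a4, Ddc and Pon3 still passed, and Dcn (adjusted p = 0.13) and H13 (adjusted p = 0.285) did not. The median of the list was -0.05, against -0.01 for all probes.

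Under Dex 2 of the 18 fell and 1 rose between genotypes, where 9.11% of genes fell and 9.1% rose. Slc38a4 fell by 0.94 (SE 0.18, adjusted p = 0.00422 in limma) and Igf2r, the maternally expressed receptor that clears IGF2, by 0.60 (SE 0.15, adjusted p = 0.0201). Snrpn, the paternally expressed splicing-factor gene near Ndn, rose by 0.49 (adjusted p = 0.00864). Slc38a4, like Igf2 and Dlk1, passed as lower in dKO cells under both treatments. Unlike them, it was near background in dKO cells, with a mean log2 level of 6.64 in dKO Dex. With Dex in dKO cells 2 of the 18 rose, Ddc (0.78) and Snrpn (0.43), and 2 fell, Gab1, a growth-factor adaptor gene (-0.53), and Igf2r (-0.52, adjusted p = 0.0478 in limma), where 13.4% of genes passed. The Ddc rise starts from its dKO EtOH level near background and was 0.26 without background correction. The calls of Snrpn and Igf2r were lost without the 3 arrays, at adjusted p = 0.358 and 0.122. With Dex in control cells Dcn fell by 1.28 (SE 0.17, adjusted p = 0.000312), where 19% of genes passed.

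**Figure D3:**
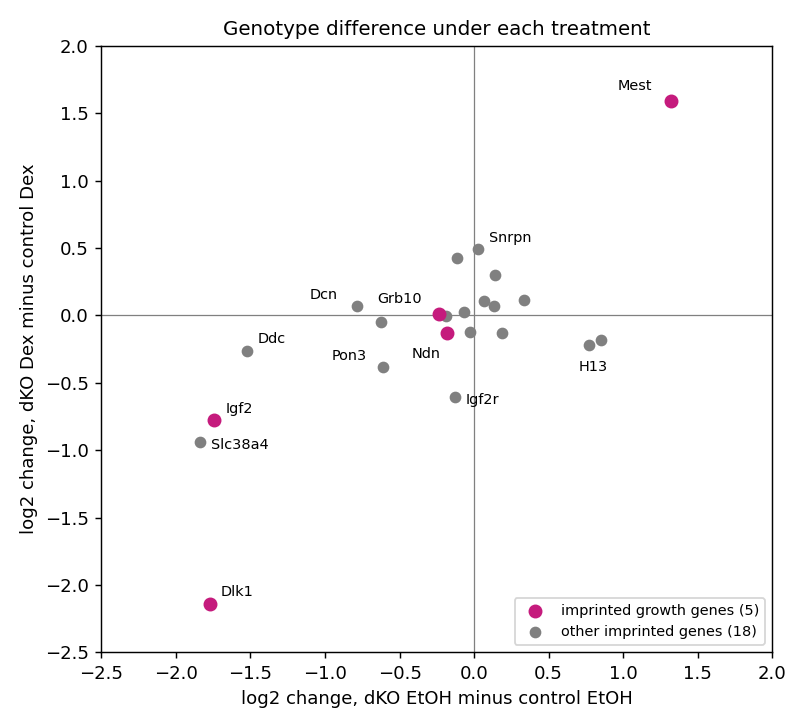
Log2 change between genotypes (dKO minus control) in EtOH on the horizontal axis and in Dex on the vertical axis, for the 5 tested imprinted growth genes and 18 other measured imprinted genes, with 1 probe per gene. Dlk1, Igf2 and Slc38a4 lie at the lower left, Mest at the upper right, and 10 of the other 18 within 0.5 of 0 on both axes.

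Around IGF2 itself, 7 of 13 listed partner genes were measured. Of all genes, 14.8% fell between genotypes in EtOH and 9.11% in Dex. With Dex, 13.4% of genes passed in dKO cells and 19% in control cells. Igf2bp3 and Igf2bp1, which encode RNA-binding proteins of fetal cells that bind Igf2 messenger RNA, fell in dKO EtOH by 0.44 (SE 0.10, adjusted p = 0.00728 in limma) and 0.66 (SE 0.21, adjusted p = 0.0408). Both calls were lost without the 3 arrays, at adjusted p = 0.0851 and 0.214. In Dex Igf2bp3 fell by 0.58 between genotypes (adjusted p = 0.00162), and also without the 3 arrays (adjusted p = 0.00156), as did Igf2r, named above. Dex raised 2 genes of insulin and IGF signalling in both genotypes: Irs2, a receptor substrate, by 1.19 in dKO and 1.36 in control cells, and Pik3r1, a regulatory subunit of phosphoinositide 3-kinase, by 0.70 in dKO and 0.92 in control cells. In dKO cells both calls were lost without the 3 arrays (adjusted p = 0.127 and 0.435).

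Of 12 listed DLK1 and Notch partners 7 were measured, and between genotypes in EtOH 3 of them rose, where 9.89% of genes rose. Hey1 and Hes1, transcriptional repressors that are classical Notch targets, rose by 1.82 (SE 0.11, adjusted p = 1.3e-06 in limma) and 0.68 (SE 0.10, adjusted p = 0.000799), and Jag1, a Notch ligand, by 0.78 (SE 0.16, adjusted p = 0.00451). In Dex, where 9.1% of genes rose, Hey1 rose by 1.92 (adjusted p = 8.39e-07) and Hes1 by 0.43 (adjusted p = 0.0148), while Notch4, a receptor of vascular cells, fell by 0.75 (adjusted p = 0.00311). Dex raised Notch4 by 2.15 in dKO cells and 3.13 in control cells. Hes1 fell with Dex in dKO cells by 0.52 (adjusted p = 0.00768), a call lost without the 3 arrays (adjusted p = 0.0753). The list's median was 0.55 in EtOH and 0.27 in Dex. Hey1 and Hes1 passed in both comparisons without the 3 arrays too.

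The remaining lists covered partners of necdin and of the PEG3 protein, and genes that maintain imprints. Of 7 measured partner genes, 1 rose between genotypes under each treatment, where 9.89% of all genes rose in EtOH and 9.1% in Dex. Msx1, a homeobox gene of limb and craniofacial mesenchyme, was above background on the 6 dKO arrays alone, through which it entered the tests, and was at least 2.79-fold higher in dKO EtOH (adjusted p = 5.62e-06 in limma) and at least 2.17-fold higher in dKO Dex (adjusted p = 8.57e-06). Of 10 measured genes of imprint maintenance, Uhrf1 and Dnmt1, which act in copying DNA methylation to the new strand after replication, fell in both comparisons. Of all genes, 14.8% fell in EtOH and 9.11% in Dex. Uhrf1 fell by 0.77 in EtOH (SE 0.10, adjusted p = 0.000207) and 0.43 in Dex (adjusted p = 0.00974). Dnmt1 fell by 0.49 in EtOH (adjusted p = 0.00919) and 0.45 in Dex (adjusted p = 0.0183). Of the same list 2 genes rose in EtOH, where 9.89% of all genes rose. They were Mbd3, a subunit gene of the NuRD complex (0.86, adjusted p = 0.0165 in limma), and Ctcfl, a testis paralogue of the insulator factor CTCF (0.61, adjusted p = 0.0349). Without the 3 arrays Uhrf1 alone of these 4 passed in EtOH (adjusted p = 0.00394). With Dex in dKO cells Smchd1, a chromatin protein gene that acts at imprinted clusters, fell by 0.50 (adjusted p = 0.0257, and 0.346 without the 3 arrays). With Dex in control cells Uhrf1 fell by 0.53 (adjusted p = 0.00283), and Siah1a, a ubiquitin ligase gene of the partner list, rose by 0.58 (adjusted p = 0.0213).

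Markers of other cell types moved with genotype. The normalized linear signal, summed over all probes of a list, was for the 9 fibroblast markers 86739 to 90596 in dKO Dex against 54587 to 60959 in control Dex, and 81607 to 94763 in dKO EtOH against 54030 to 57700 in control EtOH, with 5 of 9 higher in Dex and 6 of 9 in EtOH (4 of 9 in EtOH under median scaling), where 9.1% and 9.89% of all genes were higher. The 8 macrophage markers with a probe summed to 137800 to 143800 in dKO Dex against 164860 to 178160 in control Dex, and to 152870 to 177780 in dKO EtOH against 196430 to 198540 in control EtOH, with 4 of 6 measured lower under each treatment, where 9.11% of all genes were lower in Dex and 14.8% in EtOH. The 8 cartilage markers summed to 1960 to 2079 in dKO Dex against 470 to 498 in control Dex, and to 1925 to 2945 in dKO EtOH against 551 to 592 in control EtOH. Of the 3 measured, 2 rose under each treatment, where 9.1% of all genes rose in Dex and 9.89% in EtOH. Col2a1, above background on all 12 arrays, rose by 2.11 in dKO Dex and 2.45 in dKO EtOH. Sox9 did not pass in either (adjusted p = 0.432 and 0.0771 in limma). Comp, which entered the tests through the 6 dKO arrays, was at least 10.7-fold higher in dKO Dex and at least 9.15-fold higher in dKO EtOH. Acan, Matn3, Col9a1 and Cnmd were at background on all arrays. Of 11 skeletal muscle markers with a probe 3 were measured, and the list summed to 11510 to 12858 in dKO Dex against 5343 to 6683 in control Dex and 12353 to 13492 in dKO EtOH against 5303 to 6728 in control EtOH. Des fell by 1.65 in dKO Dex and 2.07 in dKO EtOH, Acta1 rose by 1.55 and 1.53, Tnnt1 rose by 2.05 and 0.46 (the EtOH call was lost without the 3 arrays, adjusted p = 0.121, and with median scaling, 0.112), and the myogenic regulators Myod1, Myf5, Myog and Pax7 were at background on all arrays. None of the 6 epithelial markers with a probe was measured. Endothelial Pecam1, Cdh5 and Kdr were at background, while Vwf fell by 1.41 in dKO Dex and 1.76 in dKO EtOH and Emcn by 1.04 in dKO EtOH (-0.27 in Dex, adjusted p = 0.196). Neural Nes rose by 0.63 in dKO EtOH (0.30 in Dex, adjusted p = 0.304), a call lost without the 3 arrays (adjusted p = 0.0587), and Map2 by 0.63 in dKO Dex (0.38 in EtOH, adjusted p = 0.0687). Krt7, from the placental list, was at background in dKO EtOH and at least 1.17-fold lower there (adjusted p = 0.027, and 0.243 without the 3 arrays), with a change of -0.13 in Dex (adjusted p = 0.629). The part of these cell types in the levels of Igf2, Dlk1 and Mest was not tested.

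**Figure D4:**
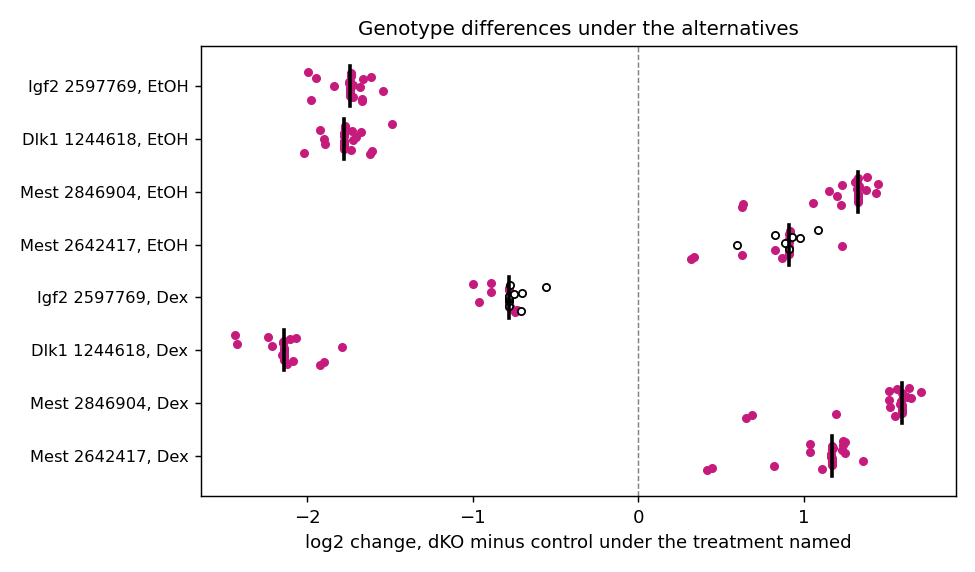
Log2 change between genotypes of the Igf2, Dlk1 and Mest probes in EtOH and in Dex under each way of processing, with filled points for a call, open points for none and black bars for the values reported above. Igf2 and Dlk1 in EtOH, Dlk1 in Dex, Mest ILMN_2846904 under both treatments and Mest ILMN_2642417 in Dex passed everywhere, whereas Igf2 in Dex and Mest ILMN_2642417 in EtOH passed in only some settings. The Mest values in Dex are fitted against control cells at background and are not bounds.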

How the data were processed

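Messenger RNA was measured in 12 samples with Illumina bead arrays. Per the file headers, the authors deposited for each probe and array a mean bead intensity, without background subtraction or scaling, and beside it a detection p-value against the negative control beads. A further table of normalized intensities, deposited by the authors with its steps not given in the sources used here, served only as an alternative. The submitters' processing notes name GenomeStudio, with no version.

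Intensities were background corrected with nec in limma 3.58.1 (R 4.3.3, offset 16), quantile normalized and log2 transformed. Gene symbols came from the platform annotation, updated by Entrez identifier for 23962 of 23978 probes, and 1719 had none. The 12054 probes with a detection p under 0.01 on at least 3 arrays were kept, covering 8420 genes. A linear model with 1 mean per group over all 12 arrays was fitted with limma, with empirical Bayes variances (11.2 degrees of freedom in total, with 3.24 prior). Adjusted p-values are Benjamini-Hochberg values over the 12054 probes, called under 0.05. The procedure was tested on simulated data. The interaction subtracts the control response to Dex from the dKO response. Listed genes were read from their kept probe with the highest mean in the same fit.

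A group with 0 arrays above background is called at background, and its folds are bounds, taken against the lowest above-background log2 value of each array (6.09 to 6.35). These bounds compare means and do not allow for the spread between arrays.

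The genes and lists were chosen with earlier results of these data known. The genes named were all 10 imprinted growth genes, the nearest genes of each by correlation, up to 4 called genes of each list, and check and marker genes. The alternatives covered background correction, scaling, the deposited table, offset, detection filter, 1 probe per gene, variance model, array weights, the samples fitted, replicate blocks and arrays left out. The number of arrays limits the precision. Chip identity was not used, since the files name no chip.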

Additional observations from a re-analysis of the deposited data

Results flagged for a closer look

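Of the imprinted growth genes and listed genes named above, 2 responded to Dex differently in the genotypes by the interaction test in limma. Neither belongs to the imprinted growth genes. Of all 12054 probes, 1.36% passed this test. The genes named by correlation were not included in the count of 2. Nor were the clock genes Dbp, Nr1d1 and Nr1d2, which were not named above and also passed (differences of 1.70, 1.79 and 1.35). Notch4 rose with Dex by 2.15 in dKO cells and by 3.13 in control cells, a difference of -0.98 ± 0.19 (SE, adjusted p = 0.0399). Without control_Dex replicate 3 and dKO_EtOH replicates 1 and 2 it was -0.96 and no longer passed (adjusted p = 0.119). Tnnt1, the slow skeletal troponin T gene, rose by 1.15 in dKO cells and fell by 0.44 in control cells, a difference of 1.59 ± 0.18 (adjusted p = 0.00226), and 1.55 without those arrays (adjusted p = 0.0229).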

How the results depend on the processing

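Over 25 other settings, 698 of 727 values of the 6 tested probes kept their side of the threshold, 12 of them uncalled values whose sign changed, 17 lost a call, 12 gained one and 0 called values changed sign. The genotype calls of Igf2 and Dlk1 in EtOH, of Dlk1 in Dex and of Mest ILMN_2846904 under both treatments passed in every setting, with changes of -1.99 to -1.54, -2.02 to -1.48, -2.43 to -1.79 and, for Mest in EtOH, 0.63 to 1.45. The Igf2 call in Dex (adjusted p = 0.00389 to 0.141) was lost with median scaling, no filter, only the compared groups, the replicate block and without each of control_EtOH replicates 1 and 3, control_Dex replicates 1 and 2 and dKO_Dex replicates 1 and 2. The cause was not tested. For Dex in control cells 0 probes passed, but 2 did with median scaling and 1 each with the deposited table, 1 probe per gene, array weights and only the compared groups. Leaving out 1 array gave 0 to 1, with 1 without control_EtOH replicate 2 or dKO_EtOH replicate 2. The Ddc call for Dex in dKO cells was lost with no background correction (adjusted p = 0.0711 in limma) and with the deposited table (0.0598). So were the genotype call of Krt7 in EtOH (0.149 and 0.114) and the Tnnt1 call for Dex in control cells (0.0835 and 0.0953). Median scaling also gave 1 call in the interaction. It ended the genotype calls of Igf2r (0.0526) and Dnmt1 (0.0558) in Dex and of H13 (0.0609), Ctcfl (0.0676), Tnnt1 (0.112) and Nes (0.0837) in EtOH. It also ended the calls of Igf2r (0.185) and Hes1 (0.0556) for Dex in dKO cells and of Siah1a (0.11) for Dex in control cells. That scaling moved the median change of the 12054 tested probes to 0.11 (Dex in dKO), -0.13 (Dex in control), -0.21 (genotype in EtOH) and 0.26 (interaction). In the same order, it turned the split of all calls to 1012 higher and 535 lower (from 839 and 725), 633 and 1563 (from 942 and 1134), 771 and 3043 (from 1291 and 1584) and 479 and 135 (from 84 and 80). Over all probes the interaction count of 164 ran from 19 to 2906 between settings, and array weights gave 4956, 3448, 6214 and 3596 calls for Dex in dKO (1564), Dex in control (2076), genotype in EtOH (2875) and genotype in Dex (2010). Arrays with the same replicate number had residual correlations of -0.17 to 0.17, and not every array was closest to its own number, so the numbers were not taken to pair the arrays. With the replicate block 4 of the 6 probes passed between genotypes in EtOH and 3 in Dex, and 0 passed for Dex in either genotype or for the interaction. Probes near background, as for Mest in control cells, limit the size of a change that can be read.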

Other observations

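The long noncoding RNA 6430411K18Rik, known as Peg11as and transcribed antisense to Rtl1 in the same imprinted cluster as Dlk1 and Meg3, was singled out after its values were seen. It is the nearest measured gene beyond Dlk1 in RefSeq order. Its probe ILMN_2966602 read 253, 222 and 283 in dKO Dex against 182, 198 and 194 in control Dex, and 340, 267 and 264 in dKO EtOH against 197, 207 and 229 in control EtOH. All 6 dKO arrays and none of the control arrays were above background, so the probe entered the tests through the dKO arrays. It was at least 1.5-fold higher in dKO Dex (adjusted p = 0.0077 in limma) and at least 1.9-fold higher in dKO EtOH (adjusted p = 0.00432), whereas Dlk1 was lower. Without control_Dex replicate 3 and dKO_EtOH replicates 1 and 2 the Dex call stayed (adjusted p = 0.01) and the EtOH call was lost (adjusted p = 0.0567). The probe of Rtl1 itself was at background on all arrays.

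The nearest measured genes on each side, 3 before and 3 after in RefSeq order, were also chosen after values were seen. Between genotypes 14.8% of all genes fell and 9.89% rose in EtOH, and 9.11% fell and 9.1% rose in Dex. Of the 6 around Igf2, Tnni2 (-0.83, adjusted p = 0.00076) and Lsp1 (-0.56, adjusted p = 0.00512), which lie on the H19 side, fell in dKO EtOH. In dKO Dex the nearest of the 6 to a call in limma was Tspan32 (-0.84, adjusted p = 0.0554). Of the 6 around Mest, Klhdc10 alone rose in EtOH (0.42, adjusted p = 0.0146), with a change of -0.04 in Dex (adjusted p = 0.833). Of the 6 around Grb10, Fignl1 (-1.03), Ddc (-1.52) and Egfr (-0.51) fell and Cobl (0.78) rose in EtOH, and Ikzf1 (-0.75) and Egfr (-0.69) fell and Cobl (0.96) rose in Dex. Of the 6 around Ndn, Atp10a fell under both treatments (-1.22 in Dex and -0.74 in EtOH) and Snrpn rose in Dex (0.49). Around Dlk1, Slc25a47 also rose in Dex (0.56).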
